A study of Mus musculus with 12 samples.

Results

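This account describes the first 2 h of exposure of mouse embryonic stem cells to panobinostat, set against the untreated cells of the same experiment. It uses the 3 arrays labelled LBH589 2 h and the 3 arrays labelled control, 0 h, of 12 arrays in the series, and every gene named on the array: 19057 genes, of which 11445 were bright enough to test. The arrays were chosen by their titles alone.

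Panobinostat (LBH589) is a hydroxamate that blocks the zinc-dependent histone deacetylases, the enzymes that take acetyl groups off histones and many other proteins. Acetylated histones are read by bromodomain proteins, and acetylation at promoters and enhancers goes with active transcription. In embryonic stem cells, histone deacetylases act within complexes such as Sin3, NuRD and CoREST, and these cells depend on a network of transcription factors that holds them pluripotent. Because histone acetylation turns over quickly, an early time point shows transcripts that move before cells have had time to divide or differentiate.

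The treated group was wild type E14 cells, a male line of the 129/Ola strain, kept in 50 nM panobinostat for 2 h. The untreated group was the same E14 cells at 0 h, whose labels also carry the agent's name beside a time of 0. Both groups grew without feeders on gelatin in medium with fetal calf serum and LIF, and the series holds 6 h and 18 h arrays of the same treatment. The labels name neither a vehicle nor untreated cells collected at the later times, so the drug, its solvent and the handling of the plates cannot be told apart. E14 is a single line, and nothing says whether the 3 arrays of a group came from separate cultures. The p-values therefore measure the spread between these arrays, which may be technical.

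Total RNA was copied into biotin-labelled cRNA and read on single-colour Illumina bead arrays of 45281 probes. At a detection p-value under 0.05, 17174 to 17652 probes were detected on the 2 h arrays and 17264 to 17542 on the 0 h arrays. Correlations of log2 signal between arrays were 0.9803 to 0.9893 within the 2 h group, 0.9704 to 0.9846 within the 0 h group and 0.9632 to 0.9834 between the groups. All 10 embryonic stem cell markers were detected on every array of both groups, with summed linear signals of 41538 to 52449 at 2 h and 48354 to 58965 at 0 h. Of 10 fibroblast markers, 1 was detected on all arrays of each group, and 7, Col1a2, Col3a1, Dcn, Postn, Fap, Pdgfrb and S100a4, on none of the 6 arrays, with sums of 386.1 to 447.9 at 2 h and 297.1 to 420.3 at 0 h. In bulk RNA, fewer cells of a type and less RNA per cell cannot be told apart. Values below are normalized signals on a log2 scale, a change is the 2 h mean minus the 0 h mean on that scale, and ± after a change is its standard error.

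After 2 h, transcripts of the immediate early Egr and Fos genes and of inducible chaperones were higher, and those of ATF4 and several ATF4 targets were lower. Of 11445 genes, 276 rose and 122 fell at an adjusted p under 0.05, 398 in all or 3.48% of the genes tested (2.41% higher, 1.07% lower; limma with Benjamini-Hochberg adjustment over all genes). A change of at least 2-fold was reached by 180 genes, 1.57%, with 132 higher and 48 lower. The median size of a change was 0.98 among the genes that rose and 0.92 among those that fell, and the median over all genes was 0.00 (-0.00474). The 3 values at 2 h lay wholly above or below the 3 at 0 h for 2571 genes, 22.5% of all tested, and for all 398 genes that passed. With genes ordered by 0 h level and cut into 4 equal groups, 71 rose and 8 fell among the dimmest (2.48% and 0.28%), 89 and 45 in the next group (3.11% and 1.57%), 91 and 42 in the one after (3.18% and 1.47%), and 25 and 27 among the brightest (0.874% and 0.944%). The 0 h level that sets this order is also part of each change. The dimmest group, at log2 levels of 4.356 to 5.561, lies near the background floor, where a fall can hardly be read. Genes that no 0 h array detected were kept through other arrays. The shares therefore do not tell how level relates to response, and they were not tested against each other. At an unadjusted limma p under 0.05, 2059 of the 11445 genes passed. Unadjusted counts of lists below stand beside that number, not beside 3.48%.

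The count depended on single arrays. With array numbers treated as pairs, 748 genes passed (467 higher, 281 lower, 6.54%), among them all 398. Without 2 h replicate 1, 2 or 3, the count was 141, 168 or 155, and without 0 h replicate 3 it was 126. In all 12 fits that left out 1 array, 93 of the 398 genes passed each time, 77 higher and 16 lower.

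**Figure D1:**
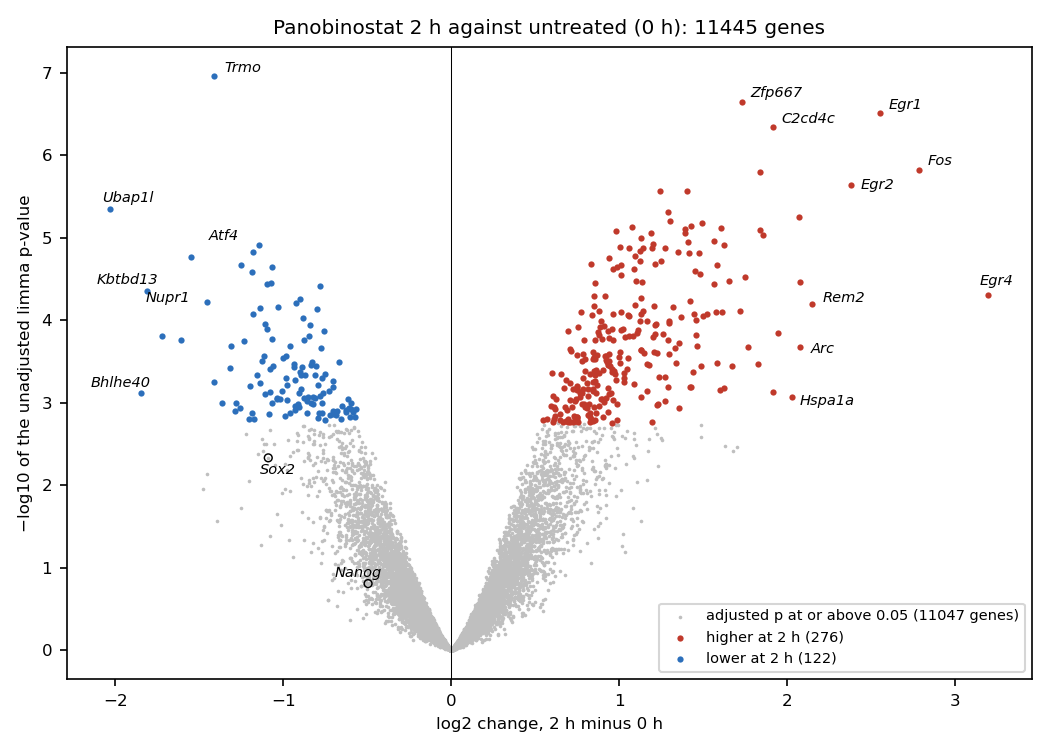
Each point is 1 of 11445 genes, with the log2 change (2 h minus 0 h) on the horizontal axis and −log10 of the unadjusted limma p-value on the vertical axis; red points are the 276 genes that rose and blue points the 122 that fell, at an adjusted p under 0.05. Egr4, Fos, Egr1 and Egr2 lie farthest to the right and Ubap1l farthest to the left of the genes that passed, while Sox2 and Nanog (open circles) lie among the genes that did not pass.

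Immediate early transcription factors held the 4 largest rises. These genes are transcribed within minutes of a growth factor or stress signal, without the need for new proteins, and many carry serum response elements (CArG boxes) bound by SRF or cyclic AMP response elements bound by CREB. Of 26 listed factors, 25 were on the array and 18 were tested. Among these, 7 rose, Fos, Fosb, Egr1, Egr2, Egr3, Egr4 and Srf, and 0 fell (38.9% passed, against 3.48% of all genes). The median change of the 18 was 0.83, and 10 of them had 2 h values wholly above those at 0 h, against 12.2% of all genes tested. The CArG boxes just upstream of Egr2 and Srf are shown because both genes rose and had a match in the promoter search described below. That search gave no match for Fos, Fosb, Egr1, Egr3 or Egr4, and gave matches for genes that did not pass, such as Zfp36 and Myl9. Capitals mark the motif, letters run 5′ to 3′ on the gene's strand, and sequences are from RefSeq on GRCm38.p6.
Egr2, chr10:67537474-67537523, + strand: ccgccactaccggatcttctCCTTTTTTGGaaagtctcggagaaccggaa
Srf, chr17:46556195-46556264, - strand: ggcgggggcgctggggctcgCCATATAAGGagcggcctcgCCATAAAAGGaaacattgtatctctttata

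Fos, a partner of Jun in the AP-1 factor, had log2 signals of 10.48, 10.05 and 10.21 at 2 h, against 7.52, 8.14 and 6.73 at 0 h, a change of 2.79 ± 0.34 (adjusted p = 0.00305). Next came Egr1, a zinc finger factor that ERK and SRF induce, which had 13.44, 12.87 and 13.33 at 2 h, against 11.19, 10.12 and 10.68 at 0 h, a change of 2.55 ± 0.27 (adjusted p = 0.00118). For both genes the lowest 2 h array stood more than 1 log2 unit above the highest 0 h array. Egr2, whose promoter is printed above, had 7.27, 7.09 and 6.89 at 2 h, against 4.72, 4.54 and 4.86 at 0 h, where no array detected it. That makes Egr2 at least 4.06-fold higher at 2 h, the bright group's mean being set against the lowest signal detected on the 0 h arrays (adjusted p = 0.00341). Egr4 had 8.82, 7.99 and 8.10 at 2 h, against 5.35, 4.98 and 4.98 at 0 h, where 1 of 3 arrays detected it, and its change of 3.20 ± 0.54 was the largest of all genes that passed (adjusted p = 0.00813).

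Srf, the factor that binds the CArG box, had 10.49, 10.32 and 10.23 at 2 h, against 9.66, 9.09 and 9.26 at 0 h, a change of 1.01 ± 0.18 (adjusted p = 0.0101). Egr3 had 7.21, 6.22 and 6.09 at 2 h, against 4.76, 4.63 and 4.40 at 0 h, a change of 1.91 ± 0.44, while another probe of the gene read -0.09. Fosb had 6.30, 5.86 and 6.23 at 2 h, against 4.65, 4.67 and 5.57 at 0 h, a change of 1.16 ± 0.27. The groups did not overlap for any of these 3 genes. Members that did not pass included Jun at 0.61 ± 0.33, Junb at 0.49 ± 0.20 and Mafk at 0.87 ± 0.25 (adjusted p = 0.371, 0.217 and 0.0778). With array numbers as pairs, Atf3 (1.03 ± 0.51, adjusted p = 0.316 unpaired and 0.0312 paired) and Csrnp1 (0.50 ± 0.22, 0.249 and 0.0464) passed too. This made 9 of 18, where 6.54% of all genes passed paired. Egr4, Fos, Egr1 and Egr2 passed in all 12 fits without 1 array, Srf in 11, Fosb in 7 and Egr3 in 6, and the list's count fell to 4 without 2 h replicate 1. Under 6 other choices of background correction and scaling, Egr3 passed in 2, Fosb in 4 and the rest in all 6.

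**Figure D2:**
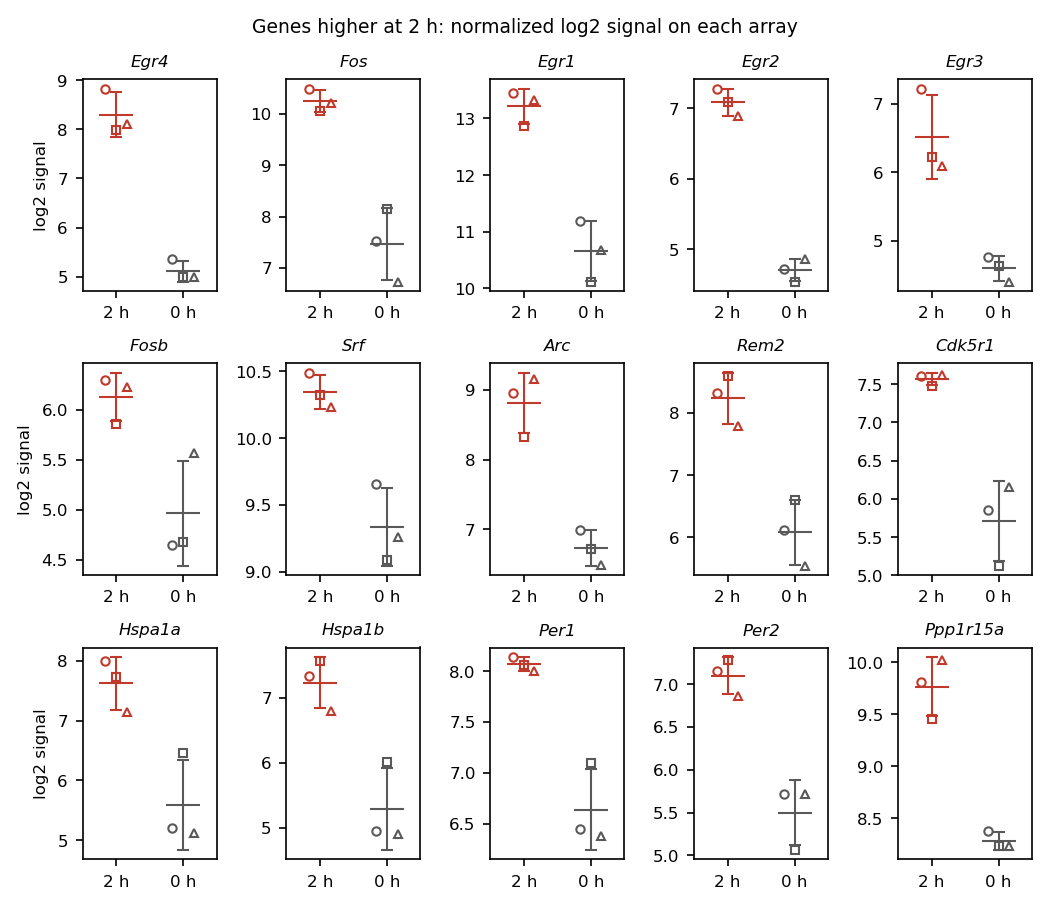
Normalized log2 signal of 15 genes that rose, 1 panel each, with the 3 arrays at 2 h on the left in red and the 3 at 0 h on the right in grey; the marker shape gives the array number, the long bar the mean and the whiskers 1 SD, and each panel has its own axis, which does not start at 0. In all 15 panels the lowest 2 h array lies above the highest 0 h array. Groups did not overlap for any of the 398 genes that passed, so this follows from the choice of panels.

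Other immediate early genes moved in both directions. Of 22 tested (27 of 28 on the array), 3 rose, Arc, Plk3 and Hbegf, and 1 fell, Mcl1. Together that is 18.2% of the list, against 3.48% of all genes, and the list median was 0.21. Arc, a neuronal activity gene that is also induced by serum, had 8.95, 8.33 and 9.15 at 2 h, against 6.99, 6.71 and 6.49 at 0 h, a change of 2.08 ± 0.41 (adjusted p = 0.0158). Hbegf, an EGF receptor ligand, changed by 1.01 ± 0.16 and Plk3, a polo-like kinase, by 1.05 ± 0.19 (adjusted p = 0.00505 and 0.0101). Mcl1, a BCL2 family protein that protects cells from apoptosis, had 11.54, 11.54 and 11.22 at 2 h, against 12.16, 12.60 and 12.17 at 0 h, a change of -0.88 ± 0.17 (adjusted p = 0.0138). Every 2 h value of Mcl1 lay below every 0 h value, and it passed in every fit without 1 array but that without 2 h replicate 3, while Arc did not pass without 2 h replicate 1 or 3 or 0 h replicate 3. With array numbers as pairs, Ccn1 (0.87 ± 0.33) also passed as higher and Gadd45g (-0.85 ± 0.34) and Gadd45a (-0.67 ± 0.18) as lower, with paired adjusted p-values of 0.026, 0.026 and 0.0417 against 0.182, 0.197 and 0.058 unpaired. Gadd45b, of the same family, went the other way, at 0.81, and did not pass. Another of its probes read 1.81 ± 0.37 and passed when limma tested all kept probes (adjusted p = 0.0189). Paired, 7 of the 22 listed genes passed, where 6.54% of all genes did.

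Feedback inhibitors of the ERK pathway dampen growth factor signalling. In their list, which also held the stress kinase phosphatase Dusp10, 3 of 19 tested rose: Dusp5, Dusp10 and Errfi1 (15.8%, where 3.48% of all genes passed). Dusp5, a nuclear phosphatase that removes phosphate from ERK, had 8.41, 8.81 and 8.83 at 2 h, against 7.36, 7.41 and 7.11 at 0 h, a change of 1.39 ± 0.20 (adjusted p = 0.00447). Errfi1, which binds and inhibits the EGF receptor, had 10.88, 10.95 and 10.60 at 2 h, against 10.00, 10.12 and 9.35 at 0 h, a change of 0.99 ± 0.24 (adjusted p = 0.0375). The groups did not overlap for either gene. Dusp10, a phosphatase of the stress kinases JNK and p38, changed by 1.26 ± 0.24 (adjusted p = 0.013). Dusp2 read 1.70 ± 0.48 and passed only with paired arrays (adjusted p = 0.0721 unpaired, 0.0323 paired), with another probe at 0.53, whereas Dusp6, a cytoplasmic ERK phosphatase, read 0.17 ± 0.17 and Spry2 -0.71 ± 0.23 without passing. Dusp5 passed in all 12 fits without 1 array, Dusp10 in 9 and Errfi1 in 5, with adjusted p-values up to 0.135 for Errfi1.

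Of 16 tested SRF targets and actin cytoskeleton genes, 2 rose, Vcl and Cfl1 (12.5%, where 3.48% of all genes passed), and the median change was 0.18. Vcl, vinculin, which links integrins to actin, had 12.36, 12.45 and 12.09 at 2 h, against 11.65, 11.69 and 11.32 at 0 h, a change of 0.75 ± 0.17 (adjusted p = 0.0303). Cfl1, cofilin, which severs actin filaments, changed by 0.83 ± 0.21 (adjusted p = 0.0464) and passed in 3 of the 12 fits without 1 array. Tagln (1.13 ± 0.45) and Fhl2 (0.87 ± 0.24) passed only with paired arrays, at 0.00395 and 0.0281 against 0.206 and 0.0664 unpaired. Paired, 4 of the 16 passed, where 6.54% of all genes did. Actb itself read 0.11 ± 0.20. The CArG boxes of Dusp5, where a pair of boxes abut, and of Vcl are printed for comparison with those of Egr2 and Srf.
Dusp5, chr19:53529043-53529102, + strand: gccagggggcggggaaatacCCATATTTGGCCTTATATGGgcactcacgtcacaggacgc
Vcl, chr14:20929151-20929200, + strand: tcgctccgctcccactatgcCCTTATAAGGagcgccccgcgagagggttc

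RefSeq promoters, 250 bases before to 50 after a start, were found for 333 of the 398 genes and searched on both strands for 5 motifs, none of which contains another. A CArG box was found in 3.46% of 289 promoters of genes that rose (10 promoters of 7 genes, 4 of them of Egr2), 0.862% of 116 promoters of genes that fell, 1.48% of 11795 promoters of tested genes and 1.63% of all 32851 promoters. The cyclic AMP response element TGACGTCA was found in 4.15% of promoters of genes that rose, 3.45% of those that fell, 3.0% of tested genes and 1.79% of all. The heat shock element was found in 0 of both sets, 0.415% of tested genes and 0.603% of all, and the E-box CACGTG in 8.3%, 9.48%, 9.85% and 7.15% in the same order. These shares describe letters in a short window and carry no test; several promoters can belong to 1 gene. The cyclic AMP response elements of Errfi1, of Sstr2, a somatostatin receptor, and of Ppp1r15a, described below, are shown as examples, with the element in capitals.
Errfi1, chr4:150854999-150855046, + strand: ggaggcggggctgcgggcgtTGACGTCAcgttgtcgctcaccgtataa
Sstr2, chr11:113619249-113619296, + strand: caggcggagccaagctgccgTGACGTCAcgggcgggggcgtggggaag
Ppp1r15a, chr7:45526269-45526300, - strand: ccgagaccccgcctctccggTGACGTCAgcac

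Among cytosolic heat shock chaperones, which bind unfolded proteins and are induced through HSF1, 4 of 18 tested rose, Hspa1a, Hspa1b, Dnajb1 and Dnajb4, and 0 fell. That is 22.2% of the list, where 3.48% of all genes passed. Hspa1a, an inducible HSP70, had 8.00, 7.72 and 7.14 at 2 h, against 5.20, 6.46 and 5.12 at 0 h, a change of 2.03 ± 0.47 (adjusted p = 0.0338). Hspa1b had 7.34, 7.57 and 6.80 at 2 h, against 4.95, 6.02 and 4.90 at 0 h, a change of 1.95 ± 0.37 (adjusted p = 0.013). These 2 genes are near-identical neighbours, so their probes may not tell them apart, and another Hspa1a probe read 0.49. The groups of both genes did not overlap, though 0 h replicate 2 stood well above the other 0 h arrays. Dnajb1, an HSP40 that works with HSP70, had 11.30, 11.23 and 11.33 at 2 h, against 10.41, 10.27 and 10.08 at 0 h, a change of 1.03 ± 0.22 (adjusted p = 0.023). Dnajb4, another HSP40, changed by 0.75 ± 0.19 (adjusted p = 0.0497), but its other probe read -0.19 and it passed in 1 of the 12 fits without 1 array. The constitutive Hspa8 read 0.30 ± 0.17, Hsp90aa1 0.12 ± 0.23 and Hsph1 0.65 ± 0.29, and the list median was 0.17. When 0 h replicate 3 was left out, or either 1 or 2 of the 2 h replicates, the list's count was 0, and it was 1 with signals that had no background correction.

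Of 18 tested genes of the unfolded protein response, 1 rose (5.56%, where 3.48% of all genes passed). This was Hspa5, the HSP70 of the endoplasmic reticulum (BiP), with 9.15, 9.23 and 9.07 at 2 h, against 8.29, 7.86 and 8.05 at 0 h, a change of 1.08 ± 0.21 (adjusted p = 0.0133). Its 3 values at 2 h all lay above those at 0 h. Pdia6, a disulfide isomerase, and Creld2 read 0.66 ± 0.18 and 0.68 ± 0.18, at adjusted p-values of 0.0615 and 0.058 unpaired and 0.0192 and 0.0371 paired. That made 3 of 18 paired, where 6.54% of all genes passed. Syvn1 read 0.70 ± 0.25 and Herpud1 -0.62 ± 0.22, and neither passed.

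Genes of the ATF4 and amino acid response held the most falls of the 60 lists. ATF4 is a transcription factor whose own mRNA is translated when eIF2α is phosphorylated, and it switches on genes for amino acid supply and stress. Of 35 tested members (38 of 42 on the array), 8 fell, Atf4, Nupr1, Chac1, Stc2, Trib3, Fgf21, Cebpg and Aldh18a1, and 1 rose, Ppp1r15a. Together that is 25.7% of the list, where 3.48% of all genes passed (1.07% as lower). The median change of the list was -0.47, against -0.00474 over all genes, and 31 of the 35 were below 0. The C/EBP-ATF response elements (CARE, TGATGNAA on either strand, printed here as found on the gene's strand) of 3 genes that fell are shown, with the element in capitals.
Chac1, chr2:119351029-119351076, + strand: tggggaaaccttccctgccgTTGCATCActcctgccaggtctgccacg
Fgf21, chr7:45615602-45615649, - strand: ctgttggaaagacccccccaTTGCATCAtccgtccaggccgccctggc
Nupr1, chr7:126625553-126625600, - strand: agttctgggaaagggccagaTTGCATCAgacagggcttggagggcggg

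This element was found in 6.9% of the promoters of genes that fell (8 of 116), 2.08% of those that rose, 2.33% of tested genes and 3.97% of all. The search gave no match for Atf4, Stc2, Cebpg or Aldh18a1. It gave matches for genes that did not pass, such as Aars and Asns, and for genes outside the list that fell, such as Arhgef2 and Smug1. Atf4 had 10.96, 11.16 and 11.20 at 2 h, against 12.28, 11.98 and 12.49 at 0 h, a change of -1.14 ± 0.17 (adjusted p = 0.00447), and another probe of it read -0.92. Trib3, a pseudokinase that feeds back on ATF4, had 9.49, 9.53 and 9.61 at 2 h, against 10.42, 10.42 and 11.07 at 0 h, a change of -1.09 ± 0.18 (adjusted p = 0.00637), and its other probe read -1.07. For both genes the 2 h arrays lay closer together than the 0 h arrays and wholly below them. Chac1, which degrades glutathione, had 9.96, 10.00 and 9.73 at 2 h, against 11.13, 10.70 and 11.81 at 0 h, a change of -1.32 ± 0.28 (adjusted p = 0.0213). Nupr1, a small stress-induced nuclear protein, had 7.88, 8.23 and 8.22 at 2 h, against 8.99, 9.54 and 10.17 at 0 h, a change of -1.46 ± 0.25 (adjusted p = 0.0091). These groups did not overlap either.

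Fgf21, a secreted stress hormone, had 4.50, 4.71 and 4.66 at 2 h, where no array detected it, against 5.09, 6.16 and 5.66 at 0 h, which made it at least 1.48-fold lower at 2 h (adjusted p = 0.0348). Stc2, a secreted glycoprotein, changed by -1.31 ± 0.26, Cebpg, a partner of ATF4, by -0.72 ± 0.18 and Aldh18a1, an enzyme of proline synthesis, by -0.70 ± 0.17 (adjusted p = 0.0157, 0.0446 and 0.0442). Ppp1r15a, or GADD34, the phosphatase subunit that reverses eIF2α phosphorylation, went the other way, with 9.81, 9.46 and 10.02 at 2 h, against 8.38, 8.23 and 8.23 at 0 h, a change of 1.48 ± 0.24 (adjusted p = 0.00564). With paired arrays 3 more fell: Ddit4, an inhibitor of mTORC1 (-1.39 ± 0.56), Vldlr (-1.25 ± 0.47) and the glycine transporter Slc6a9 (-0.92 ± 0.24), with adjusted p-values of 0.00246, 0.00783 and 0.0361 paired and 0.206, 0.175 and 0.058 unpaired. That made 12 of 35 paired, where 6.54% of all genes passed. Ddit3 (CHOP) read -0.94 ± 0.48, with overlapping groups. Atf4, Nupr1, Trib3 and Ppp1r15a passed in all 12 fits without 1 array, and the number of members that fell was 3 when 0 h replicate 3 was left out, and likewise for the first or last of the 2 h replicates.

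**Figure D3:**
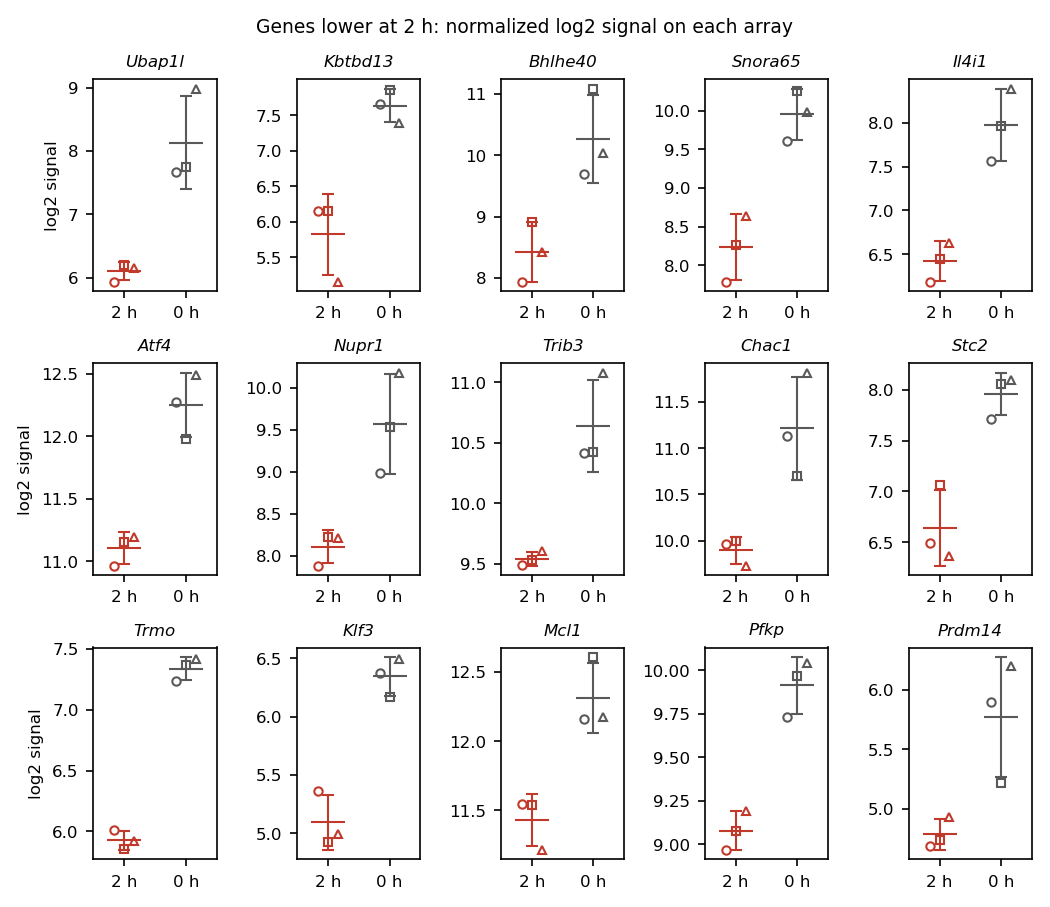
Normalized log2 signal of 15 genes that fell, drawn as in the plot of genes that rose, with 2 h on the left in red and 0 h on the right in grey, long bars at the means and whiskers of 1 SD; each panel has its own axis, which does not start at 0. In all 15 panels the highest 2 h array lies below the lowest 0 h array, which follows from the choice of panels, as in the plot of genes that rose. For Atf4, Trib3 and Chac1 the 0 h arrays are spread more widely than the 2 h arrays.

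Targets of the hypoxia-inducible factors and glycolytic genes read mostly below 0. Of 28 tested targets, 2 fell, Bhlhe40 and P4ha1, and 1 rose, Pfkfb4 (10.7% in all, against 3.48% of all genes), with a median of -0.32. Bhlhe40, a repressor that also acts in the circadian clock, had 7.94, 8.91 and 8.42 at 2 h, against 9.70, 11.08 and 10.03 at 0 h, a change of -1.85 ± 0.43 (adjusted p = 0.0314). The highest value in each group was replicate 2, and the groups did not overlap. P4ha1, a collagen prolyl hydroxylase, had 5.78, 6.30 and 5.79 at 2 h, against 6.73, 7.35 and 6.73 at 0 h, a change of -0.98 ± 0.23 (adjusted p = 0.0349). With paired arrays 7 targets fell and 1 rose, 8 of 28 against 6.54% of all genes, among them Egln3 (-0.98 ± 0.30), P4ha2 (-0.82 ± 0.38) and Car12 (-1.03 ± 0.40), with adjusted p-values of 0.0106, 0.0261 and 0.0291 paired and 0.103, 0.277 and 0.187 unpaired. The number that fell was 0 without 0 h replicate 2 or 3 or 2 h replicate 1 or 3. Of 17 tested glycolytic genes, 16 read below 0 and 1 passed (5.88%, against 3.48% of all genes), with a list median of -0.34. This was Pfkp, a phosphofructokinase, at -0.83 ± 0.17 (adjusted p = 0.0204, with 9.19 or less at 2 h and 9.73 or more at 0 h). Pfkl, of the same enzyme, read -0.53 ± 0.19 and passed with paired arrays (adjusted p = 0.156 unpaired, 0.0395 paired), with another probe at 0.22. Gapdh read -0.22 ± 0.17 and Eno2 0.72 ± 0.33.

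In the circadian clock list, the 2 period genes, which repress CLOCK and BMAL1, rose together. Per1 had 8.14, 8.06 and 8.00 at 2 h, against 6.44, 7.09 and 6.38 at 0 h, a change of 1.43 ± 0.32 (adjusted p = 0.0293), and another probe read 1.45. Per2 had 7.15, 7.29 and 6.87 at 2 h, against 5.71, 5.06 and 5.72 at 0 h, a change of 1.60 ± 0.36 (adjusted p = 0.03), with further probes at 1.33 and -0.20. Neither gene's groups overlapped, yet neither gene passed when any 1 of the 2 h arrays was left out, or 0 h replicate 1 or 3. Of the 15 tested clock genes 20% passed, Bhlhe40 above among them, where 3.48% of all genes passed, and the median was 0.08. Csnk1d, a kinase that marks PER proteins for decay, read -0.56 ± 0.19 (adjusted p = 0.13 unpaired, 0.0246 paired). Of 16 tested cholesterol synthesis genes, 14 read above 0 with a median of 0.37 and 1 passed (6.25%, against 3.48% of all genes). This was Hsd17b7, at 1.14 ± 0.20 (adjusted p = 0.0101), with another probe at 0.49.

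Transcripts of the zinc-dependent histone deacetylases, the drug's targets, had a median change of 0.08 over 10 tested genes. Of these, 0 passed by limma, where 3.48% of all genes did. At an unadjusted limma p under 0.05, 2 of the 10 passed, beside 2059 of all 11445 genes. Hdac2 had 12.37, 12.39 and 12.24 at 2 h, against 12.24, 12.13 and 12.25 at 0 h, a change of 0.12 ± 0.13. Hdac3 read -0.01 ± 0.15, Hdac6 0.15 ± 0.21 and Hdac8 0.11 ± 0.19, and the groups of all 4 overlapped. The 2 with an unadjusted p under 0.05, which were also the farthest from 0, were Hdac11 at 0.61 ± 0.27 and Hdac4 at -0.52 ± 0.16 (adjusted p = 0.256 and 0.105). Hdac1 was not analysed here. Among 7 sirtuins, the deacetylases that need NAD and that panobinostat does not block, 1 passed (14.3%, against 3.48% of all genes). This was Sirt7, which rose, with 10.31, 10.42 and 10.57 at 2 h, against 9.48, 9.37 and 9.05 at 0 h, a change of 1.14 ± 0.19 (adjusted p = 0.00632). Sirt4 read -0.88 ± 0.24 and passed with paired arrays (0.0664 unpaired, 0.0397 paired).

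Of 30 tested partners in deacetylase complexes, 2 passed (6.67%, against 3.48% of all genes). Both rose, and both are members of the Sin3 complex. Ing2, which reads methylated histone H3, had 7.11, 6.81 and 7.11 at 2 h, against 6.34, 5.96 and 5.86 at 0 h, a change of 0.96 ± 0.20 (adjusted p = 0.0217). Arid4a, an Rb-binding protein, had 8.74, 8.92 and 8.68 at 2 h, against 8.01, 7.65 and 8.03 at 0 h, a change of 0.88 ± 0.16 (adjusted p = 0.0101), with its 4 further probes between -0.09 and 0.49. The values of both genes at 2 h lay above all at 0 h. Chd4 of NuRD read 0.50 ± 0.15 (adjusted p = 0.0885 unpaired, 0.0417 paired). Of 13 tested histone acetyltransferases, 1 passed (7.69%, against 3.48% of all genes). This was Kat7, which fell, with 8.67, 8.76 and 8.67 at 2 h, against 9.36, 9.22 and 9.34 at 0 h, a change of -0.61 ± 0.15 (adjusted p = 0.0464). Kat7 passed in 2 of the 12 fits without 1 array. Of 23 BET readers and elongation factors none passed unpaired, and 4 had an unadjusted p under 0.05. Hexim1, which holds the elongation kinase P-TEFb inactive, had 7.85, 7.17 and 7.63 at 2 h, against 6.51, 4.96 and 6.28 at 0 h, a change of 1.63 ± 0.46 (adjusted p = 0.0711 unpaired, 0.0021 paired). Its groups did not overlap.

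Among pluripotency genes, the brightest probes of 15 tested core genes gave 0 calls by limma (1 at an unadjusted p under 0.05), with a median of -0.19, where 3.48% of all genes passed. Nanog had 12.23, 11.94 and 12.40 at 2 h, against 12.80, 12.52 and 12.73 at 0 h, a change of -0.49 ± 0.33 (adjusted p = 0.483), while another Nanog probe, dimmer than this one, read -0.86 ± 0.20 and passed when all kept probes were tested (adjusted p = 0.0346). Pou5f1, which encodes OCT4, read -0.33 ± 0.17, with overlapping groups. Sox2, the partner of OCT4, had 9.01, 8.83 and 9.03 at 2 h, against 9.97, 9.59 and 10.57 at 0 h, a change of -1.09 ± 0.32 (adjusted p = 0.0852 unpaired, 0.0417 paired), and another, dimmer probe read -1.56 ± 0.31 and passed in the test of all kept probes (adjusted p = 0.0175). The Nanog and Sox2 values at 2 h lay below all those at 0 h, which held for 10.3% of all genes tested.

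Of 17 tested naive pluripotency genes, 1 fell (5.88%), and the median was -0.29. This was Prdm14, a repressor that keeps stem cells naive, with 4.69, 4.74 and 4.93 at 2 h, where no array detected it, against 5.89, 5.21 and 6.20 at 0 h, at least 1.62-fold lower at 2 h (adjusted p = 0.0246). Prdm14 passed in none of the 6 fits that left out a 2 h or 0 h array. Klf4 read -0.65 ± 0.24, Esrrb -0.36 ± 0.28 and Zfp42 -0.51 ± 0.33, all with overlapping groups. Of 20 tested genes of LIF signalling, which sustains these cells through STAT3, 1 passed (5%, against 3.48% of all genes). This was Socs3, the feedback inhibitor of STAT3, which fell, with 10.33, 9.94 and 10.00 at 2 h, against 10.57, 11.13 and 10.89 at 0 h, a change of -0.77 ± 0.18 (adjusted p = 0.0373). Its groups did not overlap, and it passed in 5 of the 12 fits without 1 array. All 13 tested genes of Nodal and Activin signalling read below 0, with a median of -0.38, and 0 passed by limma (3 at an unadjusted p under 0.05); Lefty1 read -1.13 ± 0.53 and Nodal -0.74 ± 0.28. Of 15 formative and primed genes none passed (4 at an unadjusted p under 0.05), and Otx2 read -1.21 ± 0.39 (adjusted p = 0.118).

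Genes that answer deacetylase inhibitors in other cells were represented by 19 tested members with a median of 0.48, of which 2 rose (10.5%, where 3.48% of all genes passed). Sertad1, a CDK4 regulator, had 8.31, 8.19 and 8.25 at 2 h, against 7.04, 7.40 and 6.41 at 0 h, a change of 1.30 ± 0.26 (adjusted p = 0.0177). The other was the metallothionein Mt2 at 0.75 ± 0.19 (adjusted p = 0.0464), beside Mtf1, the zinc-sensing factor that drives metallothioneins, at 0.96 ± 0.24 (adjusted p = 0.0499), although 2 other Mtf1 probes read -0.05 and -0.11. Mt2 and Mtf1 each passed in 2 of the 12 fits without 1 array. Cdkn1a, the p21 inhibitor of cyclin-dependent kinases, had 9.58, 9.69 and 9.98 at 2 h, against 9.25, 9.66 and 8.89 at 0 h, a change of 0.49 ± 0.20 (adjusted p = 0.215). Its groups overlapped by 1 array, and none of the 8 tested CDK inhibitors or the 21 tested p53 targets passed unpaired (Gadd45a, above, did paired); 3 and 4 of them had an unadjusted p under 0.05. In the BCL2 family, the pro-apoptotic Bik rose by 0.86 ± 0.22 (adjusted p = 0.0485) beside the fall of Mcl1, and Bmf read 0.86 ± 0.28 without passing.

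In the Myc network, Mxd1, which competes with MYC for their partner MAX, had 6.42, 5.77 and 6.30 at 2 h, against 4.71, 4.70 and 4.71 at 0 h, where no array detected it. That is at least 2.14-fold higher at 2 h (adjusted p = 0.0132). None of the 25 tested mitosis genes passed (1 at an unadjusted p under 0.05), and of 33 DNA replication genes 1 fell, the licensing factor Cdt1, at -0.67 ± 0.14 (adjusted p = 0.0198), and 1 rose. Together that is 6.06% of the replication genes, against 3.48% of all genes. With unpaired arrays none of the 30 tested Polycomb subunits, 26 ribosomal protein genes or 12 housekeeping references passed, with medians of -0.07, -0.05 and -0.05. At an unadjusted p under 0.05, 4, 1 and 1 of them passed. With paired arrays 1 Polycomb gene did, Cbx8, with 5.81, 5.89 and 4.71 at 2 h, detected on 2 arrays, against 4.49, 4.49 and 4.57 at 0 h, detected on none (adjusted p = 0.0828 unpaired, 0.0463 paired).

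**Figure D4:**
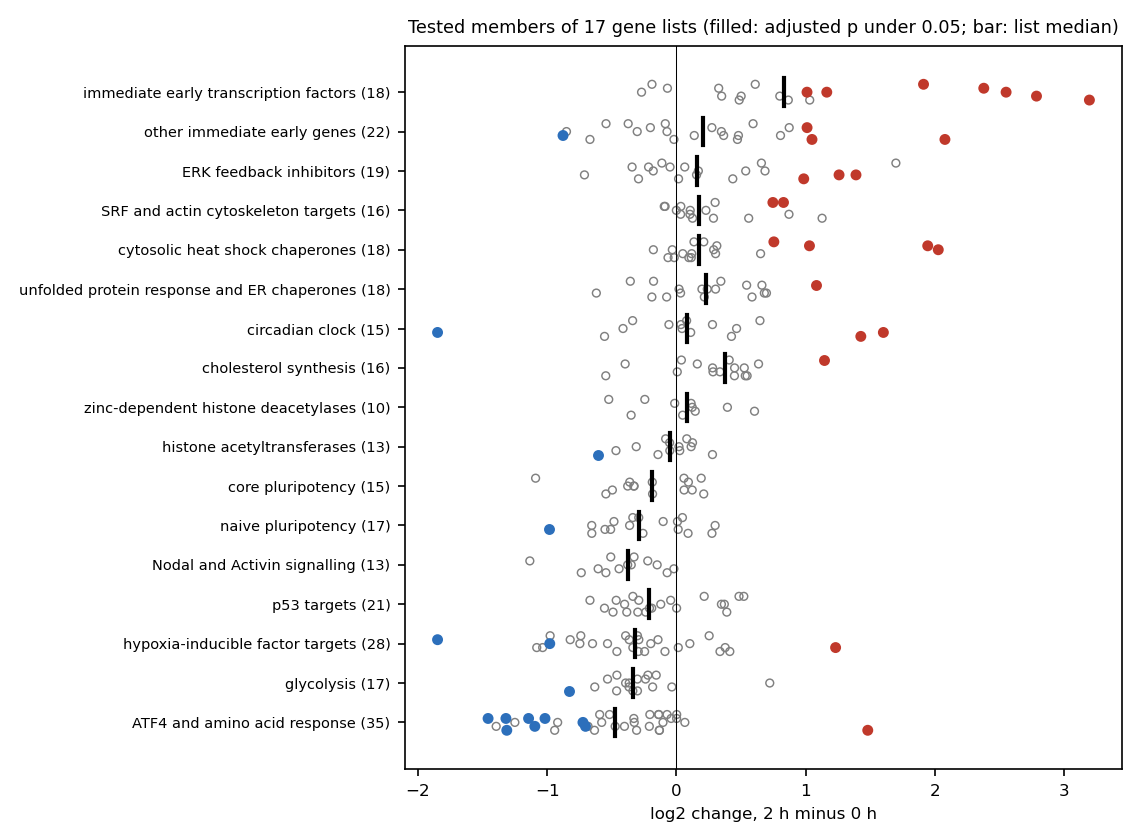
Log2 change (2 h minus 0 h) of every tested member of 17 gene lists, 1 row per list with the number of members in brackets; filled points are members with an adjusted p under 0.05 over all genes, red for higher and blue for lower, and the black bar is the list median. The median of the immediate early transcription factors lies at 0.83 and that of the ATF4 list at -0.47, while the deacetylase and core pluripotency rows hold no filled point.

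Among the other large rises were genes known from neurons. Rem2, a small GTPase that restrains calcium channels, had 8.31, 8.59 and 7.79 at 2 h, against 6.11, 6.59 and 5.54 at 0 h, a change of 2.15 ± 0.37 (adjusted p = 0.00935). Cdk5r1 (p35), the activator of CDK5, had 7.61, 7.48 and 7.62 at 2 h, against 5.85, 5.13 and 6.15 at 0 h, a change of 1.86 ± 0.27 (adjusted p = 0.00447). Rab3a, a GTPase of synaptic vesicles, had 7.62, 7.76 and 7.80 at 2 h, against 5.55, 6.56 and 5.92 at 0 h, a change of 1.72 ± 0.31 (adjusted p = 0.0101), and another probe read 2.26. None of these 3 genes had overlapping groups, and all 3 passed in the 12 fits without 1 array. Of 26 tested neural genes, however, 2 rose, Rem2 and Celsr3 (1.18 ± 0.25). That is 7.69%, where 3.48% of all genes passed, and the list median was 0.00 (-0.00167).

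Further rises covered unrelated functions. Mad2l1bp, which shuts off the mitotic checkpoint, had 11.36, 11.17 and 11.26 at 2 h, against 9.64, 9.30 and 9.33 at 0 h, a change of 1.84 ± 0.26 (adjusted p = 0.00447), and its further probes read 1.69 and 1.90. The zinc finger gene Zfp667 had 7.22, 7.25 and 7.81 at 2 h, against 5.80, 5.68 and 5.61 at 0 h, a change of 1.73 ± 0.18 (adjusted p = 0.00118). Nppb, the precursor of brain natriuretic peptide, had 6.86, 6.89 and 6.65 at 2 h, against 5.25, 4.93 and 4.92 at 0 h, a change of 1.77 ± 0.35 (adjusted p = 0.0158). Nppb passed in 9 of the 12 fits without 1 array and under 3 of the 6 other choices of background correction and scaling. The groups did not overlap for any of them. Dok4, an adaptor of tyrosine kinases, changed by 1.84 ± 0.23, C2cd4c by 1.92 ± 0.21 and Lypd3 by 2.08 ± 0.34. Probes disagreed for Zfp672, at 2.07 ± 0.29 with another probe at -0.22, and for Fchsd1, at 1.75 ± 0.28 with another at -0.35. Among 231 tested genes named Zfp, 13 rose and 5 fell (5.63% and 2.16%, against 2.41% and 1.07% of all genes).

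The largest fall was Ubap1l, whose function is little studied, with 5.94, 6.20 and 6.16 at 2 h, against 7.66, 7.75 and 8.98 at 0 h, a change of -2.03 ± 0.27 (adjusted p = 0.00447). Its neighbour in gene order, Kbtbd13, an adaptor of a ubiquitin ligase in muscle, had 6.16, 6.15 and 5.16 at 2 h, against 7.66, 7.85 and 7.39 at 0 h, a change of -1.81 ± 0.30 (adjusted p = 0.00738). Neither gene's groups overlapped, and both passed in all 12 fits without 1 array. Il4i1, an amino acid oxidase, had 6.19, 6.45 and 6.63 at 2 h, against 7.56, 7.96 and 8.38 at 0 h, a change of -1.55 ± 0.24 (adjusted p = 0.00473). Mir17hg, the host transcript of the miR-17 cluster, had 7.69, 7.95 and 7.64 at 2 h, against 9.43, 8.28 and 9.66 at 0 h, a change of -1.36 ± 0.33 (adjusted p = 0.0372). Klf3, a Krüppel-like repressor, had 5.36, 4.92 and 5.00 at 2 h, detected on 1 array, against 6.37, 6.17 and 6.50 at 0 h, a change of -1.25 ± 0.20 (adjusted p = 0.00505). These 3 genes also had no overlap between groups, and Mir17hg passed in 4 of the 12 fits without 1 array. Probes disagreed for Trmo, at -1.41 ± 0.14 with another probe at 0.01, and for Dido1, at -1.28 ± 0.30 with others between -0.94 and 1.24.

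Genes that lie side by side were also read as pairs. Of 6973 pairs of adjacent protein-coding genes that were both tested, 488 had 1 or both members past the threshold. In 18 of the 6973 pairs both passed, 14 of them in the same direction. The 3.48% of all genes that passed is a share of genes and not of pairs. Of the genes that passed, 69.3% rose, which by itself makes pairs of the same direction the more frequent. No test compared adjacent pairs with other pairs. Besides Ubap1l with Kbtbd13 and Hspa1b with Hspa1a, those in the same direction included Sertad3 (1.61) with Sertad1 (1.30), Zfp84 (1.27) with Zfp30 (1.10), Alpk3 (-1.18) with Slc28a1, and Nrbf2 (0.68) with Egr2. The rest moved in opposite directions: Zfp692 (-0.82) with Zfp672 (2.07), Tefm (-0.98) with Adap2 (0.97), Zfp428 (-1.11) with Irgq (0.94) and Hspb6 (-1.08) with Lin37 (0.84). The gene order is that of RefSeq on GRCm38.p6, and probes read through a neighbour's transcript were not tested for.

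Some genes were detected in 1 group and not in the other. There were 45 genes detected on all 3 arrays at 2 h and none at 0 h, and 17 of them passed; 43 showed the reverse, and 13 passed. Besides Egr2 and Mxd1, the first set held Otx1, a homeobox factor (6.33, 6.63 and 6.11 at 2 h, against 4.96, 5.02 and 4.52 at 0 h, at least 2.45-fold higher), and Sstr2 (6.57, 5.80 and 6.14 at 2 h, against 4.64, 4.94 and 4.60 at 0 h, at least 2.15-fold higher). The second set held Prdm14, Fgf21 and Ovgp1, an oviduct glycoprotein (5.02, 5.02 and 4.84 at 2 h, against 5.89, 7.31 and 6.49 at 0 h, at least 2.82-fold lower). All values in the group without detection lay near the background floor, so these folds are lower bounds.

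The later arrays place these values in time. They share the 0 h arrays with the 2 h comparison, so the values are given side by side with no comparison between them, and 3586 genes (31.3%) passed at 6 h and 4184 (36.6%) at 18 h. Fos changed by 2.79, 3.44 and 2.47 at 2, 6 and 18 h against 0 h, Egr1 by 2.55, 3.09 and 2.64, and Hspa1a by 2.03, 3.55 and 3.46. Nppb changed by 1.77, 4.05 and 4.84 and Cldn10, a tight junction protein, by 1.13, 3.77 and 4.62, although further Cldn10 probes read -0.12 and 0.22 at 2 h. Ppp1r15a read 1.48, 0.51 and 0.43, and Socs3 -0.77, 0.22 and 0.23 at the same times. Atf4 read -1.14, -1.43 and -0.97, Bhlhe40 -1.85, -2.43 and 0.37, and Nanog -0.49, -2.19 and -2.28.

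**Figure D5:**
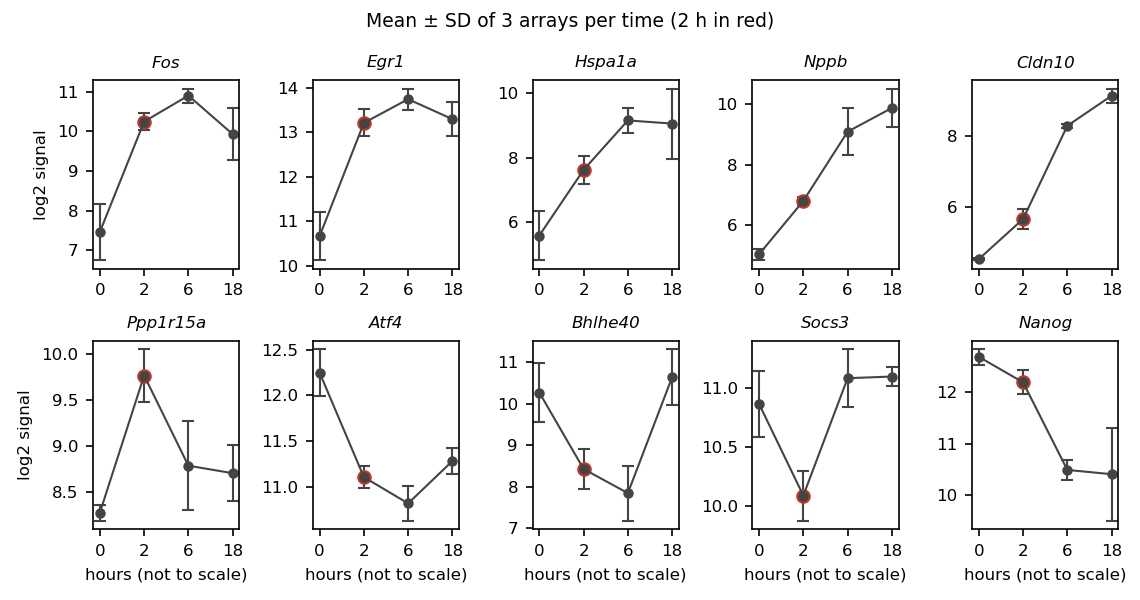
Mean normalized log2 signal of 10 genes at 0, 2, 6 and 18 h (horizontal axis, not to scale), with whiskers of 1 SD over 3 arrays and the 2 h point ringed in red; each panel has its own axis, which does not start at 0. Against 0 h, Fos reads 2.79, 3.44 and 2.47 at 2, 6 and 18 h, Ppp1r15a 1.48, 0.51 and 0.43, Socs3 -0.77, 0.22 and 0.23, and Nppb 1.77, 4.05 and 4.84.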

How the data were processed

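RNA of E14 cells was measured on 12 arrays, 3 per group, of which the 3 at 2 h and the 3 at 0 h are compared here. Per the file headers, the deposited table gives each probe on each array its signal, a linear intensity, with the authors' detection p-value. The submitters' processing notes name GenomeStudio, with no background setting. A further deposited table holds the authors' normalized intensities on a linear scale, which served as an alternative, with column medians of 117.3 to 117.4. Every column was assigned to a sample by its label.

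Of 45281 probes, 34885 had 1 gene in the platform annotation, 18 several and 10378 none; 34807 were brought to current symbols through RefSeq (GRCm38.p6). Signals were background corrected with normexp from the detection p-values (limma 3.58.1 in R 4.3.3, offset 16), quantile normalized over 12 arrays and put on a log2 scale. Probes detected (p-value under 0.05) on 3 or more arrays were kept (20029, of which 17029 had 1 gene), and each of 11445 genes was read by its brightest probe. For 3947 genes this was a choice among several probes. Of 172 further probes of changed genes, 137 moved the same way, 35 the opposite way and 86 read under 0.5 of the change. limma fitted 1 mean per group to all 12 arrays, so the 6 h and 18 h arrays helped estimate the spread; tests were 2-sided with Benjamini-Hochberg adjustment and a threshold of 0.05. The median standard error of a change was 0.20, a precision set by the number of arrays. Where no array of a group detected a gene, the fold is a bound against that group's lowest detected signal.

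The fit was tested on simulated data for the 2 h comparison (11445 genes). It found 5 of the 67 genes given a log2 change of 0.5, 38 of the 67 given 1 and 64 of the 66 given 2, and made 7 false calls. The noise was normal and independent for each gene and array on the normalized scale. It held neither the background step nor the correlation of same-numbered arrays given below, so these counts do not measure errors on the real arrays. Replicate numbers come from the titles. Deviations from the group mean of 2 h and 0 h arrays with the same number correlated at 0.328, 0.352 and 0.317, and those with different numbers at -0.331 to -0.0447. Deviations sum to 0 within a group, so positive values for matching numbers make the others negative on balance. From the matching values the numbers were taken to pair the samples, a choice that rests on these same arrays. Fits with the number as a block are given where they change a call.

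Genes are named by rule: the 20 largest rises and falls that passed, members of 60 gene lists that passed, up to 3 members of a list that did not, a fixed set of pluripotency, deacetylase and reference genes, and genes detected in 1 group. Others named beside them (further list members that did not pass unpaired, and neighbours in gene order) were chosen after their values were seen. Members and lists were chosen with earlier results of these data known. Background, scaling, filters, probe choice, the arrays in the fit, weights, the prior, the replicate block and leaving out each array were varied.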

Additional observations from a re-analysis of the deposited data

Results flagged for a closer look

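Probes that the annotation pairs with no single gene were outside the comparison of genes. When all 20029 kept probes were tested together with limma, 33 of these 3000 probes rose at 2 h and 31 fell, 2.13% in all, against 2.64% of the 17029 probes with 1 gene. They are listed because they lie outside the comparison of genes; their share is below that of the named probes. What these probes measure was not tested.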

How the results depend on the processing

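The counts, more than the directions, depended on the processing. The number of genes that passed was 207 with only the 2 h and 0 h arrays in the fit (166 higher, 41 lower, so 80.2% higher against 69.3%), 748 with the replicate block (467 higher, 281 lower) and 675 with array weights (457 higher, 218 lower). The number changed at least 2-fold was 39 without background correction, 39 with the authors' normalized values and 94 with an offset of 50. The first 2 of these settings gave the same counts (447 genes, 291 higher, 156 lower), so they are not separate checks. Without 1 array in turn, 126 to 568 genes passed, 99 to 397 higher, 27 to 171 lower and 95 to 207 at least 2-fold. Of genes detected in 1 group only, 30 passed, against 7 without background correction or with the authors' values, 13 with an offset of 50, 11 with 75th percentile scaling, 15 with cyclic loess, 16 with the 2 groups alone and 13 to 38 without 1 array. Chosen after seeing the data, the replicate block without 1 array gave 604 genes without 0 h replicate 2 (425 higher, 289 at least 2-fold, 50 detected in 1 group), 250 without 0 h replicate 3 (175 higher, 75 lower), 263 without 2 h replicate 2 (181 higher) and 237 without 2 h replicate 3 (163 higher, 74 lower, 19 detected in 1 group). The cause of these differences was not tested, beyond the smaller number of arrays in the left-out fits. The sign turned in some setting for 2 of the 398 genes, Amer3 and Olfr63. Under all 6 scalings, which include both no background correction and the authors' values, 285 passed. The replicate block lost none of the 398 calls, and the calls it added among the genes described stand beside their values; it changed no other call of a gene described. Genes near the floor read smaller changes the larger the offset, and changes of 0.5 were seldom found in the simulation with 3 arrays per group.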
